A study of Canis lupus familiaris with 13 samples.

Results

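The hearts of 4 Boxers with dilated cardiomyopathy were compared with the hearts of 3 paced mongrels, which makes 7 of the 13 heart samples of the series, chosen by their titles alone. Total RNA from heart tissue was hybridised to a 1-colour Affymetrix canine expression array, 1 array per heart. Hearts of 3 control mongrels gave the level without either condition, and 3 Dobermans with dilated cardiomyopathy were left out of the main comparison. The series covers naturally occurring canine cardiomyopathy, paced hearts and control hearts, and the contrast described here sets the Boxer disease beside the paced hearts directly. The labels give the breed and the condition but not the sex, age, heart chamber, pacing schedule or stage of disease, and they do not say whether any heart was sampled more than once, so the p-values measure the spread between these samples. All 4 diseased hearts are from Boxers and all paced and control hearts are from mongrels, with no unaffected or paced Boxer among the samples, so breed, the cause of the cardiomyopathy, pacing and the set of arrays cannot be told apart in this comparison.

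In dilated cardiomyopathy the ventricles enlarge and contract poorly, and Boxers are known for a form in which ventricular arrhythmias are prominent. Rapid pacing of a dog's heart for weeks brings on heart failure with enlarged ventricles and is used as a model of the human disease. The failing myocardium is known to switch on part of the fetal gene program, to remodel the junctions that couple muscle cells, to change its fuel use and to accumulate connective tissue and immune cells. In bulk tissue such as this, fewer cells of a type and less RNA per cell cannot be told apart.

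The paced arrays stood apart from the others before any gene was considered. The median signal was 138 ± 5.87 in Boxers, against 213 ± 5.92 in paced hearts and 145 ± 2.12 in controls (SD, n = 4, 3 and 3), and every paced array lay above every Boxer and control array (exact permutation test of Boxer against paced arrays, two-sided, p = 0.0286, the smallest that 35 splits allow, and 0.0429 after adjustment over 6 array measures). The spike-in probe sets, whose targets are added to the sample rather than transcribed by the heart, had a geometric mean signal of 2289.7 ± 184 in Boxers, against 8202 ± 4038 in paced hearts and 2542 ± 684 in controls (SD, n = 4, 3 and 3), with the same p. Each array had been scaled to the same trimmed mean of 500.1. Of 2 ratios of 3′ to 5′ control probe sets, the actin log2 ratio was -1.79 ± 0.196 in Boxers, against -2.42 ± 0.193 in paced hearts and -2.73 ± 0.421 in controls (SD, n = 4, 3 and 3). It was higher on every Boxer array than on every paced array (exact permutation p = 0.0286, adjusted 0.0429). The actin 3′ signal lay below the 5′ signal in every group, so this ratio was not read as a measure of RNA integrity. The GAPDH 3′ to 5′ ratio was 1.03 ± 0.0517 in Boxers, against 0.977 ± 0.012 in paced hearts and 1.05 ± 0.0263 in controls (SD, n = 4, 3 and 3) and did not pass the test (exact permutation p = 0.229). The 95th percentile of signal was 3218 ± 34.9 in Boxers, against 2788 ± 49.5 in paced hearts and 3163 ± 7.41 in controls (SD, n = 4, 3 and 3), also without overlap between Boxers and paced hearts (exact permutation p = 0.0286, adjusted 0.0429). The tissue label was checked on 9 ventricular muscle genes, whose mean signal was 22321 ± 1214 in Boxers, against 19377 ± 1219 in paced hearts and 26363 ± 5085 in controls (SD, n = 4, 3 and 3), so the heart muscle markers were among the brightest features in every group (exact permutation p = 0.0571 for Boxers against paced hearts). The part of these array differences in the gene results was not tested. Because of them, a probe set was called only where limma gave a Benjamini-Hochberg adjusted p under 0.05 in the same direction both on the deposited log2(signal + 16) values and after quantile normalization, and the log2 change printed is the quantile-normalized one, ± its standard error, unless another scale is named. A log2 change is always Boxer minus paced, so a positive value means a higher level in Boxers, and signals are the deposited MAS5 values, in arbitrary units, in the order Boxer 1 to 4, paced LV01, LV02 and LV04, and control P1, P4 and P9.

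**Figure D1:**
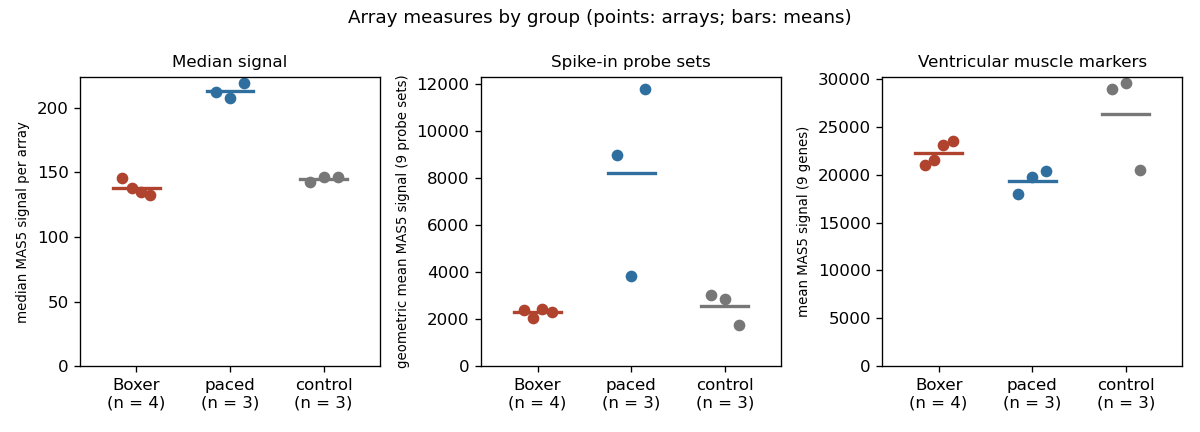
Median signal, geometric mean signal of 9 spike-in probe sets and mean signal of 9 ventricular muscle genes on each array, with Boxer, paced and control hearts from left to right (points are arrays and bars are group means, all in MAS5 signal units). The 3 paced arrays had medians between 208 and 219, against 132 to 146 in Boxers and 143 to 146 in controls.

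A large share of the transcriptome separated the Boxer hearts from the paced hearts. Of 14302 probe sets tested, 1423 were higher in Boxers (9.95%) and 1730 were lower (12.1%). Counted by genes, with the brightest tested probe set standing for each of 5269 genes, 605 were higher (11.5%) and 487 were lower (9.24%). These percentages are the background against which the counts of each gene group are read. The median size of the change was 1.03 log2 units among the probe sets called higher and 0.913 among those called lower, and 735 and 703 of them exceeded 1 log2 unit. The number of calls in each direction depended on the scaling of the arrays: 1913 were higher (13.4%) and 3326 lower (23.3%) on the deposited values alone, 2502 (17.5%) and 1971 (13.8%) after quantile normalization alone, and 7120 (49.8%) and 1098 (7.68%) when each array was centred on its median. Median centring raised every deposited change by the same amount and moved the median deposited change of all genes from 0.04 to 0.62 log2 units. Values on that scale are therefore read against 0.62. The shift favours probe sets called higher, so their passing there is no separate check on them. All 1423 probe sets called higher also passed after median centring, and 1033 of those called lower did (7.22% of those tested). By genes, these were all 605 called higher and 200 of the 487 called lower (3.8%). The median deposited change ran from -0.61 log2 units in the dimmest of 5 equal bins of the tested probe sets to 0.20 in the brightest, whereas after quantile normalization the same bins were at -0.02 and 0.03. With all 13 arrays in the fit, including the Dobermans, 548 probe sets were higher and 763 lower, and without any 1 of the 10 arrays the counts ranged from 1035 to 1425 higher and from 1319 to 1795 lower.

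**Figure D2:**
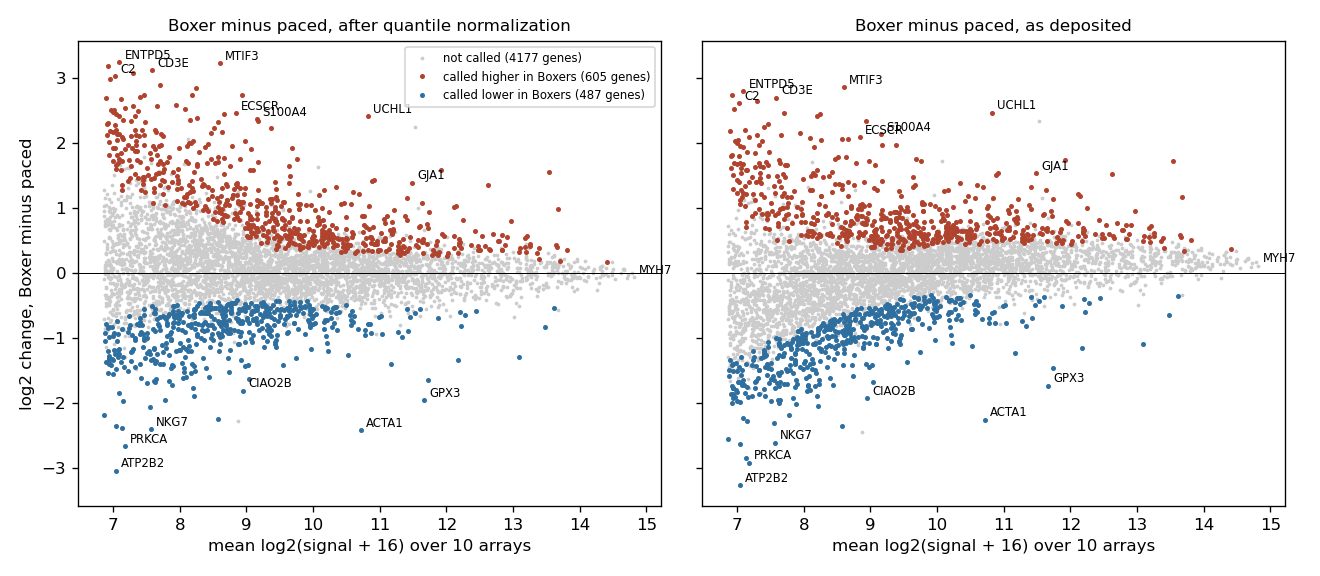
Log2 change of Boxer minus paced hearts (vertical axis) against the mean log2(signal + 16) over 10 arrays (horizontal axis) for 5269 genes, after quantile normalization (left) and as deposited (right), with 605 genes called higher in Boxers, 487 called lower and the rest not called. At low signals the cloud of uncalled genes lies below 0 on the deposited scale and around 0 after quantile normalization, and the largest changes lie at low to middle signals.

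The 12 largest rises among genes whose Boxer and paced hearts did not overlap were in ENTPD5, MTIF3, MAP1A, CD3E, NUP133, C2, CHKA, TADA3, ARHGAP17, UBXN1, EFEMP1 and CYP4A11, all with a mean paced signal of 126 or less. ENTPD5, a nucleoside diphosphatase of the endoplasmic reticulum, had signals of 208, 323, 239 and 197 in Boxers, against 16.5, 17.9 and 28 in paced hearts and 272, 184 and 184 in controls. Each Boxer lay above each paced heart and within or near the control range, a difference of 3.24 ± 0.24 log2 units (limma adjusted p = 1.40e-05). MTIF3, a mitochondrial translation initiation factor, had signals of 735, 737, 678 and 781 in Boxers, against 72.8, 89.5 and 100.2 in paced hearts and 538, 561 and 730.0 in controls. It was 9.38-fold higher in Boxers than in paced hearts, 3.23 ± 0.15 log2 units (adjusted p = 1.27e-06). ARHGAP17, a GTPase-activating protein, read 449, 533, 503 and 479 in Boxers, against 74.4, 72.5 and 84.4 in paced hearts and 414, 613 and 457 in controls. UBXN1, a protein that binds ubiquitin and the ATPase p97, read 660.3, 780.1, 647 and 647 in Boxers, against 144, 154 and 79.5 in paced hearts and 1203, 1121 and 943 in controls, and here the Boxers lay below all 3 controls as well as above the paced hearts. The dimmer probe sets of UBXN1 were not called, at 0.0051 and -0.27 log2 units. The other 8 of the 12 genes had changes between 2.74 and 3.18, and they include MAP1A, a microtubule-associated protein, NUP133, a subunit of the nuclear pore, and CHKA, the choline kinase that opens phosphatidylcholine synthesis. EFEMP1, which encodes the matrix glycoprotein fibulin-3, was the least even of them, at 411, 399, 498 and 1172 in Boxers, against 55.7, 267 and 45.5 in paced hearts. Paced heart LV02 and Boxer 4 were high within their groups, and its call was lost with all 13 arrays in the fit.

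The 12 largest falls were in ATP2B2, PRKCA, ACTA1, NKG7, TMPO, LAMTOR4, RAB28, SLC22A16, SERPINB6, SLAMF1, APOM and GPX3, and all 12 were also lower after median centring. PRKCA, LAMTOR4 and SLC22A16 read 96.4 or less in every Boxer and control heart, below the mean log2 signal of 6.87 needed for testing. ATP2B2, NKG7, SLAMF1 and TMPO also had a mean log2 signal under 6.87 over the Boxer and control hearts, for TMPO because of its dim Boxers. All of these genes were bright enough to be tested only with the paced hearts counted. SLC22A16, ATP2B2 and LAMTOR4 were tested in only 6, 8 and 9 of the 10 fits that left out 1 array. ATP2B2, a plasma membrane calcium pump best known from neurons and the inner ear, had signals of 76.6, 44.9, 30.8 and 27.9 in Boxers, against 619, 413 and 617 in paced hearts and 140.2, 114 and 24.4 in controls, a change of -3.03 ± 0.44 log2 units (limma adjusted p = 6.34e-04). PRKCA, the calcium-dependent protein kinase C alpha of heart muscle, had signals of 80.1, 62.9, 58.8 and 27.1 in Boxers, against 393, 574 and 599.6 in paced hearts and 79, 96.4 and 92.2 in controls, a change of -2.65 ± 0.28 log2 units (adjusted p = 1.23e-04). For both genes the Boxers and the controls lay together at low signals and the paced hearts stood above them. The dimmer probe set of ATP2B2 was not called, at -0.50 ± 0.27 log2 units. TMPO, which encodes the lamina-associated polypeptide 2 proteins of the nuclear envelope, differed in its pattern, with signals of 15.6, 24.4, 21.3 and 29.1 in Boxers, against 310.3, 222 and 252 in paced hearts and 495, 430.3 and 269 in controls. Here the paced hearts lay near the controls and the 4 Boxers stood below both, at -3.29 log2 units against controls (adjusted p = 1.66e-04) and -2.37 ± 0.26 log2 units against paced hearts (adjusted p = 1.49e-04). GPX3, the secreted glutathione peroxidase, had signals of 1264, 2755, 1631 and 5708 in Boxers, against 11012, 7803 and 5835 in paced hearts and 1422, 3102 and 1780.0 in controls. All 3 of its tested probe sets were lower in Boxers, although Boxer 4 reached nearly the lowest paced heart. APOM, the apolipoprotein that carries sphingosine-1-phosphate, was lower with both of its probe sets, at -1.96 log2 units with the brighter. RAB28, a small GTPase, rested on an uneven group, with signals of 44.6, 324, 36.2 and 371 in Boxers, against 677, 783 and 680.3 in paced hearts and 564, 579 and 1204 in controls, and its call was lost without Boxer 1 (-1.81 log2 units), without paced heart LV02 (-2.19) and with all 13 arrays. The remaining 5, which include the cytotoxic granule gene NKG7 and the carnitine transporter gene SLC22A16, had changes between -1.96 and -2.40.

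**Figure D3:**
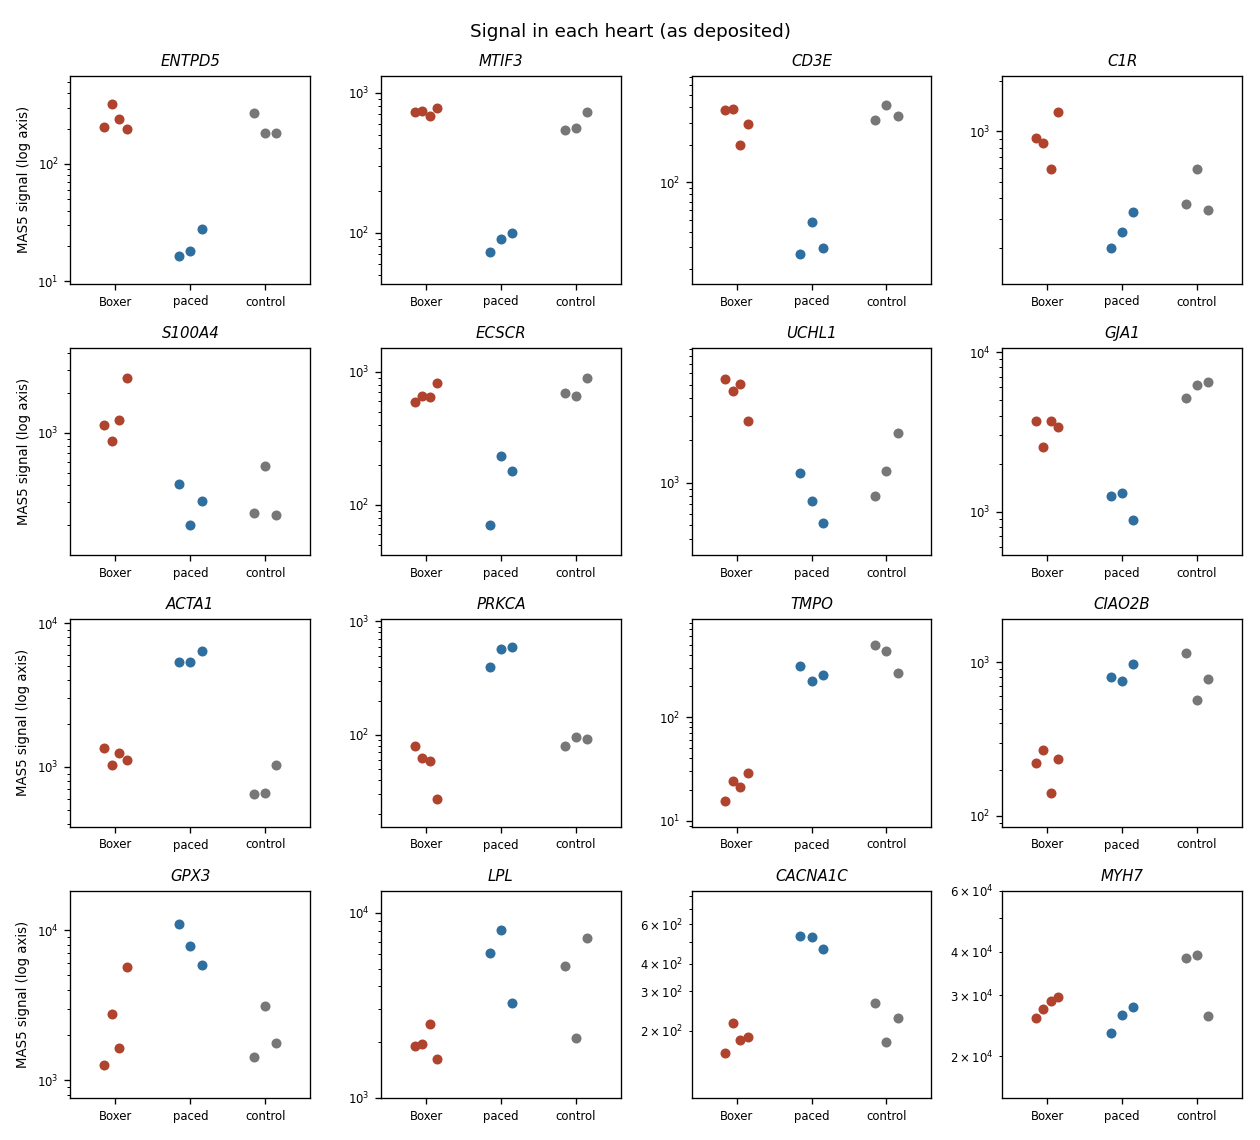
MAS5 signal as deposited (log axis) of 16 genes in each Boxer, paced and control heart, from left to right in each panel (1 point per heart). Boxers lie with or near the controls for ENTPD5, MTIF3, CD3E, ECSCR, PRKCA and CACNA1C, apart from both other groups for TMPO and CIAO2B, and with both other groups for MYH7.

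Most genes of the contractile apparatus did not separate the groups. None of 10 tested ventricular muscle markers was called by limma, and 0 of them had an unadjusted p under 0.05 on both scales, against 31% of all probe sets. Their median change was 0.05 log2 units, against 0.07 over all genes. MYH7, the main myosin heavy chain of the dog ventricle, read 25696, 27274, 28839.8 and 29543 in Boxers, against 23251, 26259 and 27729 in paced hearts and 38486, 39028 and 26108 in controls, a change of -0.06 ± 0.06 log2 units (adjusted p = 0.445). MYL2, the ventricular regulatory light chain, changed by 0.06 ± 0.05 log2 units, TNNT2, cardiac troponin T, by 0.06 ± 0.06 log2 units, ACTC1, cardiac actin, by -0.0050 log2 units, and TNNI3, cardiac troponin I, by -0.04 ± 0.07 log2 units, and none of them passed on either scale. After median centring these genes stood higher in Boxers by 0.69 to 0.82 log2 units, and passed there, beside a median of 0.62 over all genes on that scale. The values of MYH7, ACTC1 and TNNI3 changed sign there. The dimmest tested probe set of MYH7 was called lower, at -1.21 ± 0.31 log2 units, and its others were not called. TTN, the giant elastic protein of the sarcomere, changed by 0.08 ± 0.06 log2 units with its brightest probe set, while 4 of its 17 tested probe sets were called lower and the rest were not called, with a median of -0.45 over the 17.

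Skeletal alpha-actin was lower in Boxers than in paced hearts. ACTA1, a fetal isoform that the adult heart keeps at a low level and that is known to return under load, had signals of 1345, 1034, 1256 and 1125 in Boxers, against 5389.8, 5372 and 6353 in paced hearts and 645, 656 and 1025 in controls. It was 5.34-fold higher in paced hearts than in Boxers, at -2.42 ± 0.16 log2 units (limma adjusted p = 8.12e-06), and the paced hearts stood 3.02 log2 units above controls (adjusted p = 4.55e-06), whereas the Boxers stood 0.60 above them (adjusted p = 0.127). The next brightest probe set fell alike, at -2.83 ± 0.20 log2 units. Another was lower in Boxers too, at 167, 157, 183 and 88.6 against 1382, 910.1 and 1334 in paced hearts, but for it the controls were highest, at 3409.9, 2679.7 and 2558, so the probe sets disagree on which side of the controls the paced hearts lie. The last, at -0.19 ± 0.21 log2 units, was not called. Of 16 tested members of the thin filament and titin list, 3 were lower (18.8%, against 9.24% over all genes) and 1 was higher (6.25%). The other falls were TMOD4, a tropomodulin that caps thin filaments, at 137, 157, 148 and 144 in Boxers, against 323, 317 and 362 in paced hearts, and NEBL, the Z-disc protein nebulette, at 1661, 1465, 1728 and 1111 in Boxers, against 2690.5, 3051 and 1904 in paced hearts, which did not pass after median centring (-0.18 log2 units). TPM3, a tropomyosin, was higher by 0.71 ± 0.19 log2 units, a call that was lost without paced heart LV04 (0.55). Of 9 thick filament genes 1 was called, MYL6, a light chain shared with smooth muscle and non-muscle myosin, higher by 0.43 ± 0.09 log2 units, and its 9 probe sets disagreed, with 1 higher, 1 lower and a median of -0.45. In the Z-disc and costamere list 2 of 24 members were called. SYNPO2, an actin-bundling protein, was higher by 1.45 ± 0.21 log2 units, and NEXN, the Z-disc protein nexilin, was lower, at -0.68 log2 units, which became 0.08 after median centring. Desmin, DES, and dystrophin, DMD, were not called, at -0.22 and -0.11 log2 units, which became 0.55 and 0.64 after median centring. The dimmer probe set of DMD was called lower, at -1.69 ± 0.24 log2 units, and stood at -1.53 after median centring.

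The main gap junction gene of ventricular muscle separated the groups. GJA1, connexin 43, read 3693, 2557, 3703 and 3403 in Boxers, against 1258, 1306 and 882 in paced hearts and 5116, 6257 and 6441 in controls, with no overlap between any of the 3 groups. It was 2.62-fold higher in Boxers than in paced hearts, 1.39 ± 0.18 log2 units (limma adjusted p = 3.26e-04), and the call held in every alternative tried. Against controls the paced hearts stood at -2.27 log2 units (adjusted p = 2.85e-05) and the Boxers at -0.88 (adjusted p = 0.0632), which missed the threshold. Of 17 tested genes of the intercalated disc, the junction between heart muscle cells, 4 were higher (23.5%, against 11.5% over all genes) and 1 was lower (5.88%). ITGB1, the beta-1 integrin that anchors cells to the matrix, read 4178, 3402, 3474 and 4624 in Boxers, against 1933, 2403 and 2000.1 in paced hearts. Its muscle partner ITGA7 was higher by 0.56 ± 0.16 log2 units and LIMS1, an adaptor that binds integrin-linked kinase, by 0.77 ± 0.25 log2 units. The ITGA7 call was lost without paced heart LV01 (0.45) and without LV02 (0.51), and the LIMS1 call without any of 4 single arrays. DSC2, a desmosomal cadherin, read 2269.6, 1717, 2276 and 2397 in Boxers, against 3805, 3701 and 3798 in paced hearts, lower, at -0.98 log2 units, and it did not pass after median centring (-0.23). The desmosomal genes DSP and JUP and the N-cadherin gene CDH2 were not called, at 0.18, -0.18 and -0.36 log2 units, and the value of JUP became 0.56 after median centring. PKP2, DSG2 and STRN, which have been studied in arrhythmogenic cardiomyopathy, were not analysed here.

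Genes of calcium handling were called in part. The calcium release channel RYR2 and the uptake pump ATP2A2 were not called, at 0.29 and 0.04 log2 units, and 1 of the 10 probe sets of ATP2A2 was called higher and 1 lower. TRDN, triadin of the release complex, had adjusted p-values of 0.0489 after quantile normalization, at -0.23 log2 units, and 0.712 as deposited, so it was not called, and it turned to 0.53 after median centring. A dimmer probe set of TRDN was called lower, at -0.83 ± 0.23 log2 units, and its others were not called. The L-type channel gene CACNA1C, through which calcium enters the muscle cell, read 159, 217, 181 and 188 in Boxers, against 532, 525 and 464 in paced hearts and 267, 178 and 228 in controls. It was lower in Boxers, at -1.12 log2 units (limma adjusted p = 0.00101), and the paced hearts lay above both other groups. All 3 catalytic subunits of calcineurin, the calcium-dependent phosphatase known for its part in cardiac growth signalling, were higher in Boxers. PPP3CC read 2202, 2472, 2357 and 1832 in Boxers, against 1247, 968 and 731 in paced hearts and 1094, 963 and 1230.4 in controls, a change of 1.08 ± 0.18 log2 units (adjusted p = 0.00158), and here the paced hearts lay with the controls. PPP3CB changed by 0.57 ± 0.16 log2 units (adjusted p = 0.0175) and lost its call without paced heart LV02 (0.43). PPP3CA changed by 0.44 ± 0.14 log2 units (adjusted p = 0.0332), with the call lost without any of 5 single arrays. In all, 4 of the 21 tested genes of this list were higher (19%, against 11.5% over all genes), the fourth being the phosphatase subunit PPP1CB at 0.46. The 2 lower (9.52%, near the 9.24% over all genes) were CACNA1C and ASPH, whose -0.59 became 0.13 after median centring. The calls of PPP1CB and ASPH were each lost without any of 6 single arrays. Among 12 ion channel and pump genes CACNA1C was the 1 lower and KCNJ8, the pore of the ATP-sensitive potassium channel of vessels, the 1 higher. The inward rectifier gene KCNJ2 was not called, at -0.51 log2 units.

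Complement genes were higher in the Boxers. Of 11 tested genes of the complement and acute phase list, 6 were higher (54.5%) and none was lower, against 11.5% higher and 9.24% lower over all genes, and the median change was 0.85 log2 units, against 0.07 over all genes. C1R, a protease of the first complement component, read 911, 854, 597 and 1302 in Boxers, against 202, 251 and 328 in paced hearts and 366, 596 and 339 in controls, a change of 2.03 ± 0.27 log2 units (limma adjusted p = 4.06e-04). Its partner protease C1S read 2577, 2682, 2016 and 3385 in Boxers, against 1137, 1609.7 and 1134 in paced hearts and 1234, 1729 and 1073 in controls. C2, which is cleaved by C1S, read 306, 211, 166 and 519 in Boxers, against 27.2, 51.6 and 21.1 in paced hearts and 91.6, 119 and 112 in controls. All Boxers lay above all paced hearts for these 3 genes, and above all controls too. C3, the central component of the cascade, read 1023, 1352, 853 and 1399 in Boxers, against 538, 799 and 559.9 in paced hearts and 286, 545 and 206 in controls, and it was the gene of this group that also passed between Boxers and controls with the probe set shown (1.69 log2 units, adjusted p = 0.0438). Inhibitors of the cascade were higher as well. SERPING1, the inhibitor of C1, changed by 0.71 ± 0.23 log2 units, and CLU, clusterin, which binds the terminal complex, by 1.16 ± 0.36 log2 units with groups that overlapped, since paced heart LV01 at 4108 came near the Boxers. The calls of C3, SERPING1 and CLU were lost without any of 6, 4 and 4 single arrays, with changes between 0.74 and 1.07, 0.46 and 0.87 and 0.62 and 1.70 log2 units over the 10 fits.

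A few antigen presentation and macrophage genes were called higher. In the list of MHC genes 3 of 12 tested members were higher (25%, against 11.5% over all genes) and none was lower, with a median of 0.85 log2 units. DLA-DQB1, a class II chain of the dog, read 1271, 1427, 971 and 1404 in Boxers, against 220.5, 368 and 569 in paced hearts and 698, 2174 and 618 in controls, and the controls spread over the range of the Boxers. DLA-DRA changed by 1.08 ± 0.34 log2 units and lost its call without any of 5 single arrays, and TAP1, which pumps peptides toward class I molecules, changed by 1.27 ± 0.19 log2 units. The probe sets of DLA-DRA disagreed. A dimmer one was called higher, at 5.15 ± 0.81 log2 units, with controls at 28.1, 1085 and 304. Another was not called, at -0.53 ± 0.20 log2 units. Of 20 macrophage and monocyte markers 3 were higher (15%, near the 11.5% over all genes) and none was lower, with a median of 0.61. LYZ, lysozyme, read 1729, 996, 1849 and 2868 in Boxers, against 784, 622 and 752 in paced hearts and 621, 934 and 1083 in controls. LAPTM5, a lysosomal protein of blood cells, and CCL2, the chemokine that draws monocytes, changed by 1.14 and 1.07 log2 units and lost their calls without any of 6 and 5 single arrays. None of 7 interferon response genes was called on both scales, with 1 at an unadjusted p under 0.05 on both by limma. MX1, at 881, 735, 784 and 386 in Boxers, against 447, 234 and 454 in paced hearts, had adjusted p-values of 0.0392 after quantile normalization and 0.0721 as deposited, and OAS2 had 0.0101 and 0.266.

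Lymphocyte genes did not move one way. CD3E, a chain of the T cell receptor complex, read 383, 389, 199.8 and 293 in Boxers, against 26.3, 47.9 and 29.6 in paced hearts and 314, 414 and 339.7 in controls, a change of 3.12 ± 0.24 log2 units (limma adjusted p = 1.72e-05). NKG7 went the other way, at 195, 91.8, 42.7 and 74.5 in Boxers, against 746, 581 and 556 in paced hearts and 114, 107 and 102 in controls, a change of -2.40 ± 0.33 log2 units (adjusted p = 4.77e-04). In both cases the Boxers lay with the controls and the paced hearts apart. Of the 9 tested members, CCL5, a chemokine of T cells, was also higher, by 1.55 ± 0.29 log2 units, and IL2RG, the shared gamma chain of cytokine receptors, and CD4 were also lower, at -1.41 and -0.66 log2 units. In all, 2 of the 9 were higher (22.2%, against 11.5% over all genes) and 3 were lower (33.3%, against 9.24%). NKG7 and IL2RG had a mean log2 signal under the 6.87 needed for testing over the Boxer and control hearts. Both were bright enough to be tested only through the paced hearts. The calls of CCL5, IL2RG and CD4 were lost without any of 4, 6 and 4 single arrays, CD4 did not pass after median centring (-0.31), and the median over both CD4 probe sets was 0.11.

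Several fibroblast and matrix genes were called higher in the Boxers, the matrix genes at a share near the background. Of 12 tested fibroblast markers 6 were higher (50%) and none was lower, and of 40 matrix genes 5 were higher (12.5%, against 11.5% over all genes) and none was lower, with medians of 0.44 and 0.38 log2 units. S100A4, a calcium-binding protein of activated fibroblasts and other migrating cells, read 1155, 867, 1250.4 and 2596 in Boxers, against 411, 201 and 302 in paced hearts and 245, 559 and 237 in controls, a change of 2.37 ± 0.39 log2 units (limma adjusted p = 0.00124). PDGFRL, a protein that resembles the PDGF receptor, read 1355, 1094, 1255 and 1069 in Boxers, against 301, 388 and 209.8 in paced hearts and 653, 763 and 517 in controls, a change of 2.22 ± 0.23 log2 units (adjusted p = 1.17e-04). The 4 Boxers lay above every paced and control heart for both genes. DPT, dermatopontin, which binds decorin and collagen fibrils, read 7201, 6107, 7547 and 5272 in Boxers, against 2380.4, 2399 and 4027 in paced hearts and 4363, 4802 and 4231 in controls. The remaining fibroblast rises were smaller, at 0.79 for ACTA2, the smooth muscle actin of vessels and myofibroblasts, 0.65 for IGFBP4 and 0.36 for vimentin, VIM, and each lost its call in 1 to 3 of the 10 fits that left out 1 array. Among the matrix genes, SPARC, a collagen-binding glycoprotein, read 12296, 10597, 9866 and 13229 in Boxers, against 6080.4, 6674 and 8150.0 in paced hearts and 9705, 13636 and 7567 in controls, and its call was lost without any of 3 arrays. LAMB2, the laminin beta-2 chain of basement membranes, COL12A1 and decorin, DCN, changed by 1.02, 0.70 and 0.38 log2 units and lost their calls without any of 3, 4 and 1 single arrays. The main fibrillar collagens were not called: COL1A1 read 986, 784, 441 and 2576 in Boxers, against 795, 499 and 1738 in paced hearts, and COL3A1 changed by 0.33 ± 0.42 log2 units. SPP1, osteopontin, read 1048, 664, 1133 and 5681 in Boxers, against 1320.3, 2381 and 835 in paced hearts and 309, 58.7 and 513 in controls. Its Boxer and paced ranges overlapped (adjusted p = 0.971), and every heart of either group lay above every control.

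Vessel genes were higher in part. ECSCR, an endothelial surface protein, read 588, 658, 641 and 817 in Boxers, against 70.8, 232 and 178 in paced hearts and 689, 662 and 893 in controls, a change of 2.46 ± 0.29 log2 units (limma adjusted p = 2.16e-04). TEK, the angiopoietin receptor, read 421, 374, 491 and 369 in Boxers, against 249, 244 and 275 in paced hearts and 426, 676 and 660.5 in controls. For both, the paced hearts were the lowest group with the probe set shown. The dimmer probe set of TEK was not called, and there the paced hearts were the highest group. It read 103, 133, 96.3 and 152 in Boxers, against 278, 274.5 and 250 in paced hearts and 65.3, 188 and 154 in controls. The other rises among the 17 endothelial markers were EDN1, the endothelin precursor, at 1.41, the water channel AQP1 at 0.41 and caveolin-1, CAV1, at 0.32 log2 units, and their calls were lost without any of 7, 5 and 2 single arrays. The dimmer probe set of EDN1 went the other way, at -0.58 log2 units, and was not called. In all, 5 of the 17 were higher (29.4%, against 11.5% over all genes). None of the 17 was lower, and the pan-endothelial markers PECAM1 and VWF, added here after their values were seen, were not called, at 0.01 and -0.44. Of 13 smooth muscle and pericyte markers 4 were higher (30.8%, against 11.5% over all genes) and 1 was lower (7.69%). MCAM, an adhesion molecule of pericytes and endothelium, read 291, 228, 263 and 260.2 in Boxers, against 61, 42.1 and 109 in paced hearts and 311, 274 and 302 in controls, and KCNJ8 read 2129, 2594, 1688 and 1886 in Boxers, against 915, 1201 and 1301 in paced hearts and 2961, 3383 and 2326 in controls, a call lost without paced heart LV01 (0.56). SMTN, smoothelin of contractile smooth muscle, went the other way, at 2924, 5547, 2776 and 3087 in Boxers, against 6569.5, 8705 and 7688 in paced hearts and 3767, 4293 and 4169.8 in controls. Boxer 2 stood nearer the paced hearts than the other 3 Boxers did.

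**Figure D4:**
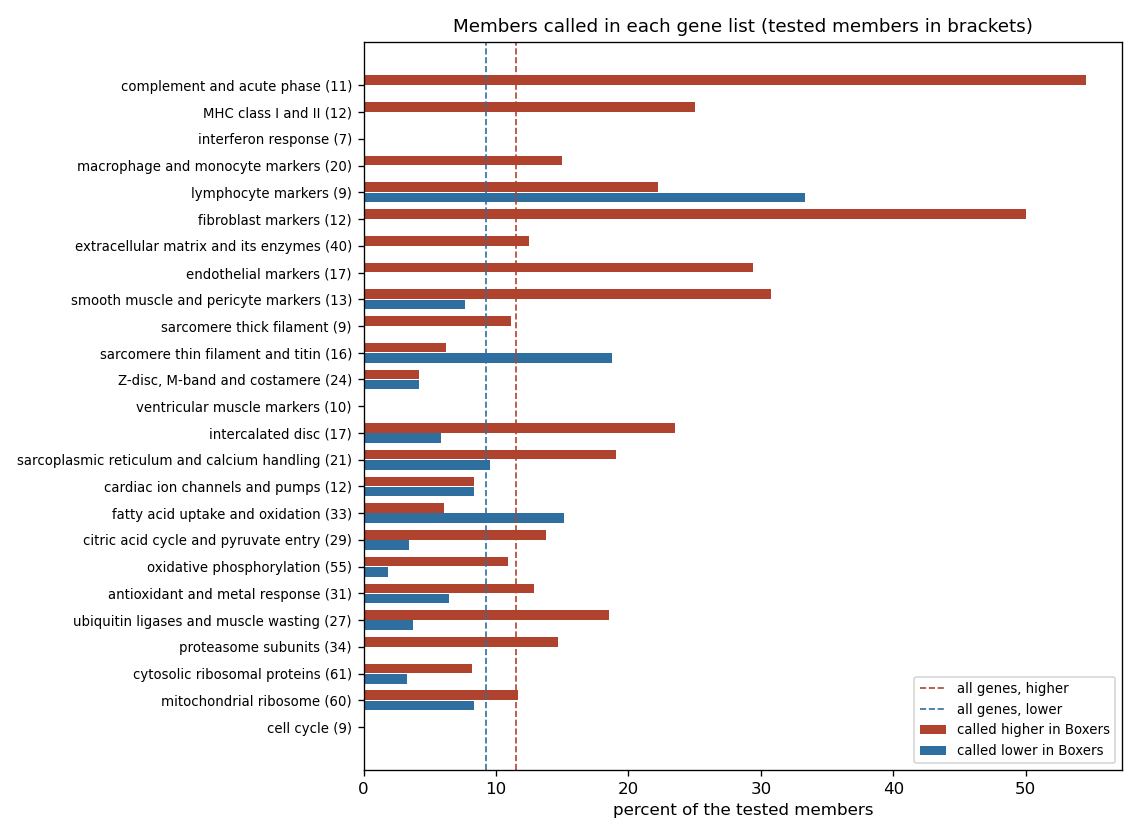
Percent of the tested members of 25 gene lists called higher and called lower in Boxers than in paced hearts (bars), with the percent of all tested genes called higher (11.5%) and lower (9.24%) as dashed lines. The complement list (54.5% higher) and the fibroblast list (50%) reach farthest above the line for higher genes, and the lymphocyte list holds calls in both directions.

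Fuel genes showed few calls beyond the background. Of 33 tested genes of fatty acid uptake and oxidation, 5 were lower (15.2%) and 2 were higher (6.06%), and none of the 5 falls passed after median centring. LPL, the lipase that frees fatty acids from circulating lipoproteins, read 1909, 1950.1, 2519 and 1612 in Boxers, against 6083, 8129 and 3263 in paced hearts and 5190.5, 2102 and 7338 in controls, a change of -1.65 ± 0.38 log2 units (limma adjusted p = 0.00782). The Boxers were close together and below all paced hearts, and 1 control lay within their range. Its call was lost without paced heart LV02 (-1.37). PDK4, the kinase that turns off pyruvate dehydrogenase when fat is burned, read 4075, 7051, 2370.0 and 11056 in Boxers, against 9122, 12512 and 12227 in paced hearts and 15207, 13634 and 11245 in controls. The groups overlapped because Boxer 4 lay among the paced hearts, and the call was lost without any of 8 single arrays, with changes between -1.62 and -0.91 log2 units over the 10 fits. ETFA, ACADSB and ACOT13, which act in mitochondrial fatty acid breakdown, were lower, at -0.65, -0.54 and -0.54 log2 units and turned to 0.12, 0.13 and 0.05 after median centring. ACAD9, an acyl-CoA dehydrogenase that also helps to assemble complex I, was higher, at 2506, 2478, 2508 and 2628 in Boxers, against 1490.1, 1638 and 1655 in paced hearts. CD36, the fatty acid translocase, was not called, at 0.24. In the citric acid cycle list 4 of 29 were higher (13.8%, near the 11.5% over all genes) and 1 was lower (3.45%). SUCLA2, a subunit of succinyl-CoA synthetase, read 3718, 3289, 2780.1 and 3892 in Boxers, against 1496, 1929 and 2047 in paced hearts and 4230.5, 4844 and 5237 in controls, and PDP1, the phosphatase that turns pyruvate dehydrogenase back on, read 246, 319, 266 and 381 in Boxers, against 106, 177 and 226 in paced hearts and 381, 468 and 406 in controls. The PDP1 call was lost without paced heart LV01 (1.05). DLST, a subunit of the oxoglutarate dehydrogenase complex, was lower, at -0.76 log2 units and stood at -0.02 after median centring. Of 55 genes of oxidative phosphorylation 6 were higher (10.9%, near the 11.5% over all genes) and 1 was lower (1.82%, against 9.24%). The fall was the complex III subunit UQCR10 at -0.67 (-0.067 and not past the threshold after median centring). The median of the 55 genes was 0.02, below the 0.07 of all genes.

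Genes of protein turnover and redox defence held a few large rises. UCHL1, a ubiquitin hydrolase abundant in neurons and raised in some diseased muscle, read 5442, 4479.5, 5022 and 2747 in Boxers, against 1169.8, 738 and 512 in paced hearts and 803, 1220.5 and 2264 in controls. Every Boxer lay above every paced and control heart, both of its tested probe sets were called, and the change of 2.41 ± 0.37 log2 units (limma adjusted p = 8.85e-04) held in every alternative. Of 27 genes of ubiquitin ligases and muscle wasting, 5 were higher (18.5%, against 11.5% over all genes) and 1 was lower (3.7%). UBE4B, a ubiquitin chain-elongating enzyme, was higher by 1.20 ± 0.23 log2 units, and the ligase ITCH was lower, at -0.87 log2 units, with 1 of its other probe sets called higher. FBXO32, atrogin-1, the ligase linked to muscle atrophy, was at 0.46 (adjusted p = 0.0446) and was called in only 1 of the 10 fits that left out an array. Among 34 proteasome subunits 5 were higher (14.7%, near the 11.5% over all genes) and none was lower. The 5 rises were at 0.32 to 0.51 log2 units, the highest being PSMD10, whose call was lost without any of 4 single arrays and with all 13 arrays. In the antioxidant list 4 of 31 were higher (12.9%, near the 11.5% over all genes) and 2 were lower (6.45%). MGST1, a membrane-bound glutathione transferase, read 475, 396, 279 and 562 in Boxers, against 209.7, 172 and 64.7 in paced hearts and 156, 87.1 and 51.9 in controls, with the paced hearts near the controls. TFRC, the transferrin receptor for iron uptake, and TXNRD1, thioredoxin reductase, were higher by 1.58 ± 0.29 log2 units and 1.30 ± 0.23 log2 units, and both held in every alternative. GPX1, the cytosolic glutathione peroxidase, changed by 0.43 with its brightest probe set, opposite to the secreted GPX3. Its dimmer probe sets were not called, at 0.11, 0.48 and -0.25 log2 units. GSS, glutathione synthetase, was lower, at -0.77 log2 units with its brighter probe set and higher with its other, and the fall did not pass after median centring (-0.30).

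The mitochondrial ribosome list was near the background and the cytosolic list was below it. In the mitochondrial ribosome list 7 of 60 were higher (11.7%, against 11.5% over all genes) and 5 were lower (8.33%, against 9.24%). Its median was -0.03 log2 units, and MTIF3, with the largest change, stood far from that median. MRPS33 was higher by 1.12 ± 0.22 log2 units, and MRPS27 at 1.70 lost its call in 8 of the 10 fits that left out an array. Of 61 cytosolic ribosomal proteins 5 were higher (8.2%) and 2 were lower (3.28%). RPL10A had the largest change, 2.14 ± 0.34 log2 units, at signals of 187, 298, 587 and 265 in Boxers, against 89.7, 99.2 and 69.6 in paced hearts. Ribosomal proteins have many processed pseudogenes, and probe sets of such families may read more than 1 gene. None of 9 cell cycle genes was called, with 2 at an unadjusted p under 0.05 on both scales by limma.

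The control hearts show on which side of the normal level each difference lies. The contrasts of Boxers and of paced hearts with controls share the 3 control arrays, so their values are set side by side only. Against controls, 7 probe sets were higher (0.0489% of those tested) and 29 lower (0.203%) in Boxers, while 1525 were higher (10.7%) and 1304 lower (9.12%) in paced hearts. Among the 1423 probe sets higher in Boxers than in paced hearts, the paced hearts alone differed from controls in 811, the Boxers alone in 4, both in 1 and neither in 607. Among the 1730 lower in Boxers, these numbers were 1116, 14, 1 and 599. The paced mean lay farther from the control mean than the Boxer mean did in 1180 and 1499 of them. These probe sets were chosen by their Boxer minus paced values on the same arrays. The counts therefore describe the chosen probe sets and are no separate test. The paced arrays are also the ones with the higher medians and spike-in signals, and the part of that in these counts was not tested. CIAO2B, a factor that delivers iron-sulfur clusters to enzymes, was one of the genes at which the Boxers stood apart, at 219.7, 268, 141 and 233 in Boxers, against 801, 758 and 983 in paced hearts and 1151, 568 and 782 in controls. It was lower than in paced hearts, at -1.81 log2 units (limma adjusted p = 3.73e-04) and lower than in controls, at -1.69 (adjusted p = 0.0215). The dimmer probe set of CIAO2B was not called, at 0.085 log2 units against paced hearts and 0.089 against controls. CMTM6, a membrane protein that stabilises the immune checkpoint ligand PD-L1, was above controls in both groups, at 846, 666, 1145 and 734 in Boxers, against 570.5, 579 and 748 in paced hearts and 244, 287 and 365 in controls, and did not separate Boxers from paced hearts (adjusted p = 0.137). IGFBP2, a binding protein of insulin-like growth factors, and the cell cycle inhibitor CDKN1A were not called between Boxers and paced hearts, at 1.36 ± 0.60 log2 units and 0.63 ± 0.45 log2 units.

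**Figure D5:**
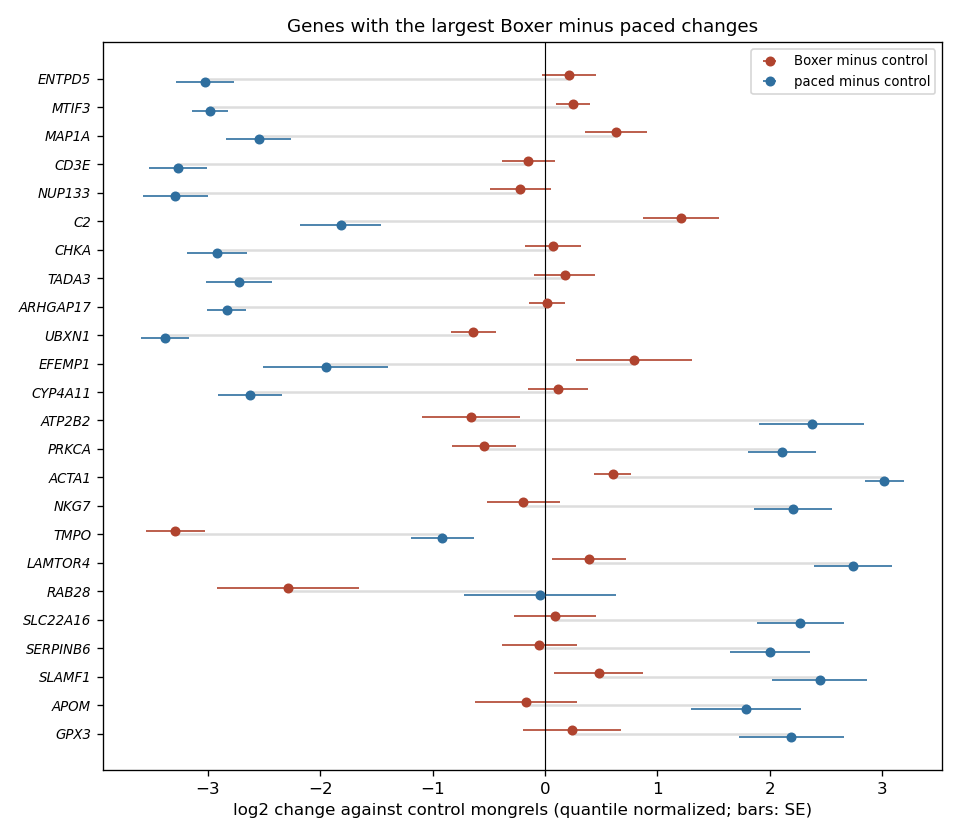
Log2 change against control mongrels (horizontal axis, quantile normalized, bars are SE) of Boxers and of paced hearts for the 12 largest rises and the 12 largest falls of Boxer minus paced. Most Boxer values lie near 0 and most paced values lie far from it, and TMPO and RAB28 show the opposite arrangement.

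Genes with several probe sets give a check on these values from within the arrays. Among 1570 genes with more than 1 tested probe set, 171 had at least 2 that were called, of which 70 had all calls higher and 54 all lower. In the other 47 (27.5%) the called probe sets went in both directions. The values given for a gene are those of its brightest tested probe set. ACTA1, C1S, C3, UCHL1, GPX3, APOM, PDGFRL, LPL, SMTN, PPP3CB, ITGB1 and UBE4B are among the genes with more than 1 probe set called and all of these in 1 direction.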

How the data were processed

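The authors deposited 1 table of MAS5 signal intensities for 13 arrays (MAS5 per the submitters' processing notes, its version not given in the sources used here), linear and scaled by the authors to a common trimmed mean, as the values show. RNA was extracted with Trizol and RNeasy and labelled with the standard 1-cycle protocol, per the labels' protocols. Of 23913 probe sets, 77 controls were left out. Of the other 23836, 10549 carry 1 gene symbol, 138 several and 13149 none in the platform annotation, and none was renamed.

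Here the intensities were taken as log2(signal + 16), and limma 3.58.1 (R 4.3.3; lmFit, eBayes with trend) was fitted on 10 arrays (7 residual degrees of freedom) to the 14302 probe sets at or above the 40th percentile of mean log2 signal (6.87). A call needed a Benjamini-Hochberg adjusted p under 0.05 on both the deposited and the quantile-normalized scale. Detection calls were not used here, so dim probe sets have no stated background. The number of arrays limits the precision.

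The comparison, the gene lists and the tests were chosen with earlier results of these data known, and the titles decided which samples each group holds. Named genes were the 12 largest rises and 12 largest falls without overlap between groups, up to 6 called members of a described list (or 2 uncalled ones where none was called) and a fixed panel. Of that panel, 6 genes had no tested probe set. The fit was tested on simulated data. The alternatives were other scalings, pseudocounts, filters and array sets, array weights and leaving out each array.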

Additional observations from a re-analysis of the deposited data

Results flagged for a closer look

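Among the 4 Boxers, 8 of 132 items checked (126 genes and 6 array measures) had 1 heart far from the other 3, with a gap above Dixon's 95% critical value, as a share of the group's range (genes on the log2(signal + 16) scale). Chance alone sets about 1 in 20 groups apart in this way. Boxer 2 was the heart apart for UBXN1, at 780 against 647 to 660 in the other Boxers (gap 0.889 of the range), for DCN, at 10408 against 13426 to 13985 (0.862), for SMTN, at 5547 against 2776 to 3087 (0.847), and for DSC2, at 1717 against 2269.6 to 2397 (0.836). Boxer 4 was apart for VIM, at 19702 against 15179 to 15674 (0.877), for PPP3CB, at 1013 against 1348 to 1388 (0.907), and for NCAM1, at 311 against 185 to 190.0 (0.953). Boxer 3 was apart for DLST, at 1124 against 1307 to 1341 (0.854). None of the 6 array measures was set apart in this way.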

How the results depend on the processing

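The main counts were 1423 probe sets higher and 1730 lower in Boxers. They came to 1913 and 3326 on the deposited values alone, 2502 and 1971 after quantile normalization alone and 7120 and 1098 after median centring alone. Requiring all 3 scalings, an alternative chosen after the values were seen, left 1423 and 1033, where the common upward shift of median centring favours the first count. They were 1837 and 3055 with no filter, 799 and 536 with the filter at the 70th percentile, where 7151 probe sets were tested, 548 and 763 with all 13 arrays and 605 and 487 counted by genes. Pseudocounts of 1 and 64, the 7 Boxer and paced arrays alone and array weights kept both counts within 1.5 times. Leaving out 1 array at a time gave 1035 to 1425 higher and 1319 to 1795 lower. No main call was called in the opposite direction under any of these settings.

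Of the 126 genes named, 102 were called, and 63 of these were tested in all 21 alternative fits, of which 18 kept their call in all. Of the 94 tested in all 10 fits that left out 1 array, 53 kept it in all. All 13 arrays cost 54 of 98 calls and median centring 14 of 102. Called falls that changed sign after median centring were ASPH (0.13), NEXN (0.078), ETFA (0.12), ACOT13 (0.051) and ACADSB (0.13). Uncalled genes below 0 that were past the threshold above 0 on that scale were JUP (0.56), MYH7 (0.69), ACTC1 (0.77), TNNI3 (0.74), TRDN (0.53), DES (0.55) and DMD (0.64). The median over probe sets had the other sign for the called genes CD4 (0.11), MYL6 (-0.45), ACOT13 (0.13) and GSS (0.51), and for the uncalled genes TTN (-0.45), JUP (0.19) and COL1A1 (-0.02). Values after median centring are the deposited changes raised by the same amount for every probe set. Why the probe sets of a gene disagree was not tested. No paired analysis was possible because the groups share no replicate numbers. Depth is not defined for arrays, and without detection calls the lowest signals have no stated background.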

Other observations

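Some gene groups outside the main text held calls as well. Of 6 tested nerve and Schwann cell markers, 3 were lower in Boxers (50%, against 9.24% over all genes). UCHL1 was the 1 higher (16.7%, against 11.5%). NEFH, the heavy neurofilament subunit, read 119, 39.9, 81.2 and 53 in Boxers, against 293, 158 and 345 in paced hearts and 73, 95.3 and 114 in controls, and NCAM1, the neural cell adhesion molecule, read 186, 185, 190.0 and 311 in Boxers, against 371, 518 and 553 in paced hearts and 642, 327 and 554 in controls. As deposited, every Boxer lay below every paced heart for both genes, and below every control for NCAM1. Leaving out any of 4 single arrays ended the call of NEFH, any of 5 that of NCAM1, and median centring also ended that of NCAM1. IGF1, the growth factor that signals through the IGF1 receptor, was lower, at 40.7, 113, 76.4 and 47.7 in Boxers, against 315, 187 and 356 in paced hearts and 63.6, 33.2 and 169 in controls (limma adjusted p = 0.0368). IGF1 was tested in only 7 of the 10 fits that left out 1 array, and leaving out Boxer 1, 3 or 4 ended its call. Of the 13 tested members of its list, 3 were higher (23.1%, against 11.5% over all genes). IGF1 was the 1 lower (7.69%, against 9.24%). AGTR2, the type 2 angiotensin receptor, was lower, at 60.4, 83.3, 55.2 and 100.4 in Boxers, against 252, 217 and 359 in paced hearts and 104, 53.5 and 148 in controls (adjusted p = 0.0184), and its call was lost without paced heart LV04. Over the Boxer and control hearts, NEFH, IGF1 and AGTR2 had a mean log2 signal under the 6.87 needed for testing. They were bright enough to be tested only through the paced hearts. ATG7, an enzyme that starts autophagosome formation, was higher by 1.34 ± 0.30 log2 units, and its call was lost without any of 5 single arrays.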
